A study of Mus musculus with 18 samples.

Results

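The young and the mature tissue capsule that forms around a sterile object in the mouse peritoneal cavity were compared through the myeloid cells sorted from them, at day 28 against day 7 after implantation. The groups were chosen by their labels, and they hold 4 of the study's 18 arrays, 2 per day. All 4 arrays measured RNA from MacGreen mice, a C57Bl/6J line aged 10 to 16 weeks in which the Csf1r promoter directs EGFP to myeloid cells. Objects that had stayed free in the cavity were recovered, and their capsules were digested with collagenase. Cells bright for EGFP were then sorted and pooled, so each array averages over whatever EGFP-bright cells the capsule held. The labels do not say whether both arrays of a day came from separate animals, so p-values below reflect array-to-array spread alone, and that spread may be technical. The other arrays of the study measured capsule cells at day 14 and 21, and lavage cells of the cavity, and are used here for the estimate of spread and for reference.

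A foreign object that cannot be engulfed first draws neutrophils and monocytes, which become macrophages at its surface. Macrophages there can fuse into foreign body giant cells, release proteases, and are later enclosed with fibroblasts and myofibroblasts in a fibrous capsule. In tissue, macrophages of monocyte origin can also take on features of long-lived resident macrophages.

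Capsule day 28 was hybridised on slide 4 and capsule day 7 on slides 1 and 2, so the day and the slide cannot be told apart in this comparison. Capsule day 21 shared slide 4 with day 28 and capsule day 14 was on slide 3. Mean raw intensity was 465 and 468 on the day 28 arrays, against 744 and 805 on the day 7 arrays. The day 28 arrays detected 18311 and 19345 probes, against 17360 and 17022 on the day 7 arrays. After background correction and quantile normalisation, the Pearson correlation over the 10806 genes tested was 0.992 between the day 28 arrays and 0.991 between the day 7 arrays. It was 0.959 to 0.962 between days. Against the labelled myeloid sort, 8 of 8 macrophage markers tested, Adgre1, Itgam, Fcgr1, Mertk, Lyz2, Aif1, Cd14 and Spi1, were detected on all 4 arrays. Their summed linear intensity was 102671 and 92859 at day 28, against 105646 and 97853 at day 7. Csf1r, whose promoter drives the reporter, and Cd68 were not analysed here.

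Of the 10806 genes, 3368 (31.2%) differed between day 28 and day 7 at an adjusted p under 0.05 in limma's moderated test. The level was higher at day 28 in 1750 genes (16.2%) and lower in 1618 (15%). The total was 2070 without day 28 replicate 2 and 2220 without day 7 replicate 2. Most differences were modest, with a median size of 0.82 on the log2 scale among the changed genes. A change of at least 2-fold was found for 1172 genes (10.8%), 521 higher (4.82%) and 651 lower (6.02%), and a change of at least 8-fold for 8 higher and 11 lower. The arrays of the days did not overlap in 68.6% of all genes tested, so that lack of overlap alone says little. At day 28, 589 genes were detected on both arrays that were detected on neither day 7 array, and 179 showed the opposite. For these genes a fold is given only as a lower bound, set by the lowest signal detected on the arrays of the other day. With median scaling in place of quantiles, the median of all genes was -0.14 rather than 0.01, and the 3610 genes called were 35.7% higher rather than 52%.

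In 618 genes every one of the 6 arrays of slides 3 and 4 lay above all 12 arrays of slides 1 and 2, lavage included, and in 598 genes every one lay below. Such slide-separated genes were 11.3% of those tested and 27.8% of those called, 479 of the higher and 457 of the lower. Capsule cells after day 7 were only on slides 3 and 4, so for these genes slide and capsule age cannot be told apart. Leaving them out kept 2432 called genes, 1271 higher and 1161 lower. For many named genes it is said where they appear whether they are slide-separated, and a gene without such a statement may be either.

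**Figure D1:**
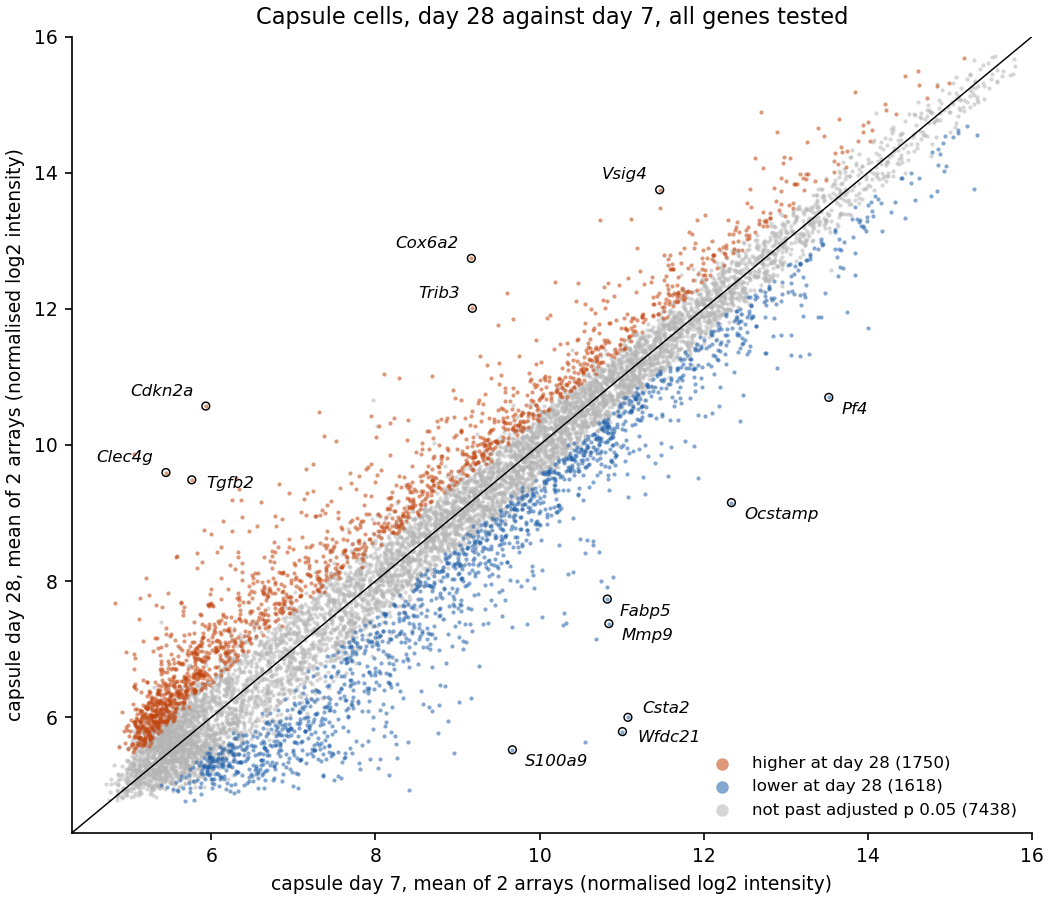
Mean normalised log2 intensity of each of the 10806 genes at capsule day 28 (vertical axis) and capsule day 7 (horizontal axis), 2 arrays per day, with the line of equal level. The 1750 genes higher at day 28 lie above the line in orange and the 1618 lower lie below it in blue. Cdkn2a stands farthest above among the genes labelled, and Wfdc21 and Csta2 farthest below.

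The cell cycle inhibitor locus Cdkn2a, which encodes p16Ink4a and p19Arf, showed one of the largest rises. It read 10.68 and 10.46 at day 28, against 5.77 and 6.09 at day 7, in normalised log2 intensity, the scale of all levels below. The difference was 4.64 with a standard error (SE) of 0.39, or 24.9-fold (adjusted p 5.3e-06). The levels of the days lay far apart, with a gap many times the spread within either day. Of 2 other Cdkn2a probes, 1 gave a difference of 3.69 (adjusted p 3.3e-06) and the other 0.15 (adjusted p 0.72), and the cause of this disagreement was not tested. Its genomic neighbour Cdkn2b, which encodes the inhibitor p15Ink4b and was singled out after its values were seen, read 9.58 and 9.72 at day 28, against 7.26 and 7.05 at day 7 (difference 2.49, SE 0.29, adjusted p 5.47e-05).

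Other large rises were in secreted factors and matrix modifiers. Tgfb2, a ligand of the TGF-beta family, read 9.30 and 9.67 at day 28, against 5.76 and 5.77 at day 7 (difference 3.73, SE 0.53, adjusted p 0.000216). A second Tgfb2 probe differed by 0.43 and did not pass (adjusted p 0.37). Pcolce2, an enhancer of procollagen processing, read 10.60 and 10.36 at day 28, against 7.33 and 7.29 at day 7 (difference 3.17, adjusted p 0.000388). The serine protease Htra3 read 10.32 and 9.95 at day 28, against 7.32 and 7.43 at day 7 (difference 2.76, adjusted p 7.75e-06). A second Htra3 probe did not pass (0.36, adjusted p 0.43). In each of the probes chosen the lowest day 28 array was at least several-fold above the highest day 7 array. Olfml3, an olfactomedin-like extracellular protein, was detected on neither day 7 array and was at least 5.09-fold higher at day 28.

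Enzymes, carriers and membrane proteins made up most of the rest. Cox6a2, a cytochrome c oxidase subunit best known from heart and skeletal muscle, read 12.61 and 12.87 at day 28, against 9.17 on both arrays at day 7 (difference 3.57, SE 0.31, adjusted p 5.3e-06). The glycine transporter Slc6a9 read 9.06 and 9.34 at day 28, against 6.18 and 6.32 at day 7 (difference 2.95, adjusted p 1.68e-05). The sulfotransferase Chst1 read 10.97 and 11.13 at day 28, against 8.0 and 8.21 at day 7 (difference 2.94, adjusted p 7.04e-07). All 3 were detected on all 4 arrays. Adcy4, an adenylyl cyclase, rose by 3.21 (0.47 on a second probe, adjusted p 0.061), the steroid sulfate carrier Slc10a6 by 3.02 and the tight junction protein Cldn11 by 2.84. Clec4g, a C-type lectin known from liver and lymph node endothelium, read 9.25 and 9.94 at day 28 and was detected on neither day 7 array, a rise of at least 14.9-fold. Sprr2e and Pxdc1 were also not detected at day 7 and were at least 3.93-fold and 6.32-fold higher. Trib3 is described with its pathway, and Enpp5, Mb21d2, Zcchc14 and Dpysl3, which rose by 2.70 to 2.83, complete the 20 largest rises together with Psmc1. A second Zcchc14 probe did not pass (0.28, adjusted p 0.34). Psmc1, a proteasome ATPase, read 10.11 and 9.64 at day 28, was detected on neither day 7 array and was at least 18-fold higher, with an SE of 1.22 on the log2 scale. The arrays of lavage day 0 differed from each other, at 9.40 and 5.47. Without day 28 replicate 1 its adjusted p was 0.0509. Of the 20 rises, 12 were slide-separated: Adcy4, Chst1, Cldn11, Cox6a2, Dpysl3, Mb21d2, Olfml3, Pcolce2, Pxdc1, Slc6a9, Sprr2e and Trib3.

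The largest fall was in Wfdc21, a secreted whey acidic protein-type gene, which read 6.25 and 5.33 at day 28, against 11.10 and 10.92 at day 7 (difference -5.22, SE 0.62, adjusted p 5.71e-05). The stefin-type protease inhibitor Csta2, whose close relatives may share its probe's signal, read 6.40 and 5.59 at day 28, against 11.41 and 10.74 at day 7 (difference -5.08, SE 0.73, adjusted p 0.000236). S100a9, a calcium-binding alarmin, read 5.97 and 5.07 at day 28, against 10.34 and 8.99 at day 7 (difference -4.15, SE 0.50, adjusted p 6.39e-05). All 3 were low at day 28 and high at day 7, with some spread within each day. Wfdc21 and S100a9 were detected on only 1 of the 2 day 28 arrays.

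Eno2, the neuronal-type enolase, read 6.80 and 7.49 at day 28, against 10.90 and 10.47 at day 7 (difference -3.54, adjusted p 3.4e-05). The metal-binding Mt3 read 5.58 and 5.36 at day 28, against 9.01 and 8.90 at day 7 (difference -3.48, adjusted p 1.45e-06), while Mt1 differed by -0.01 (adjusted p 0.98). The vessel regulator Angpt2 read 8.15 and 7.68 at day 28, against 10.85 and 10.79 at day 7 (difference -2.91, adjusted p 0.000119). The platelet factor 4 gene Pf4, a CXC chemokine that macrophages also express, read 10.86 and 10.54 at day 28, against 13.45 and 13.60 at day 7 (difference -2.83, SE 0.17, adjusted p 6.28e-07). None of these 4 genes was slide-separated, and Mt3 was detected on only 1 day 28 array. Angptl4, a secreted inhibitor of lipoprotein lipase, fell by 3.0 (-0.66 on a second probe, adjusted p 0.058), Prxl2a by 2.94 and the actin regulator Evl by 2.83, and Prelid2 fell by 2.88. Arap3 and the zinc finger gene Zfp979 were detected on neither day 28 array and were at least 6.72-fold and 7.39-fold lower. The chitinase-like gene Chil1 read 5.56 and 5.72 at day 28, against 10.82 and 10.27 at day 7, but the arrays of lavage day 14 read 5.41 and 12.29, and its SE was 1.39. Its adjusted p was 0.0164, and it was 0.0543 to 0.0788 when any 1 of the 4 arrays was left out. Of the 20 falls, only Arap3 and Evl were slide-separated.

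**Figure D2:**
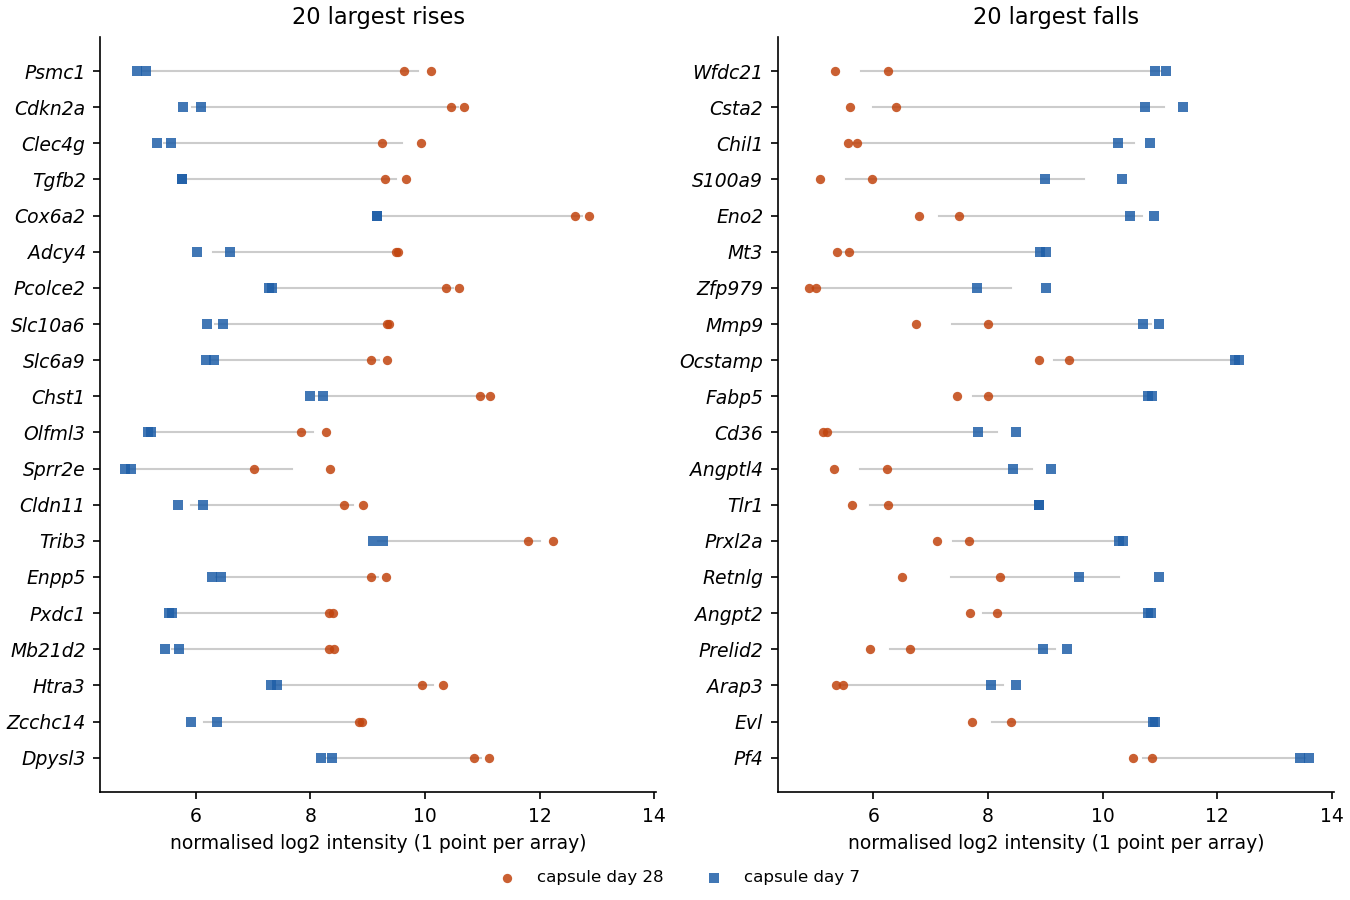
The 20 largest rises (left) and 20 largest falls (right), with normalised log2 intensity on the horizontal axis, 1 orange circle per day 28 array and 1 blue square per day 7 array, joined by a line between the means. The choice of genes required that the arrays of the days not overlap. The means differ by 2.70 or more among the rises, and the spread within a day is widest for Retnlg, Sprr2e and S100a9.

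The changed genes were then read by function, in 54 lists of genes written from textbook roles. The share of list members called is set against 31.2% of all genes, 16.2% higher and 15% lower. Downward shares above this background were found for lists of cholesterol synthesis, cell cycle, neutrophil markers, lipid handling, recruited monocytes, smooth muscle, lipid-associated macrophages, matrix proteases and cell fusion, among others. Upward shares above it were found for glucocorticoid and circadian targets, coagulation, MHC class II presentation and inflammatory cytokines, among others, and all the inflammatory rises are slide-separated. Several lists were above it in both directions. Among them were dendritic cell markers, endoplasmic reticulum stress, coagulation, recruited monocytes, growth factors and Toll-like receptors. Because these are pools of sorted cells, fewer cells of a type and less RNA per cell cannot be told apart.

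**Figure D3:**
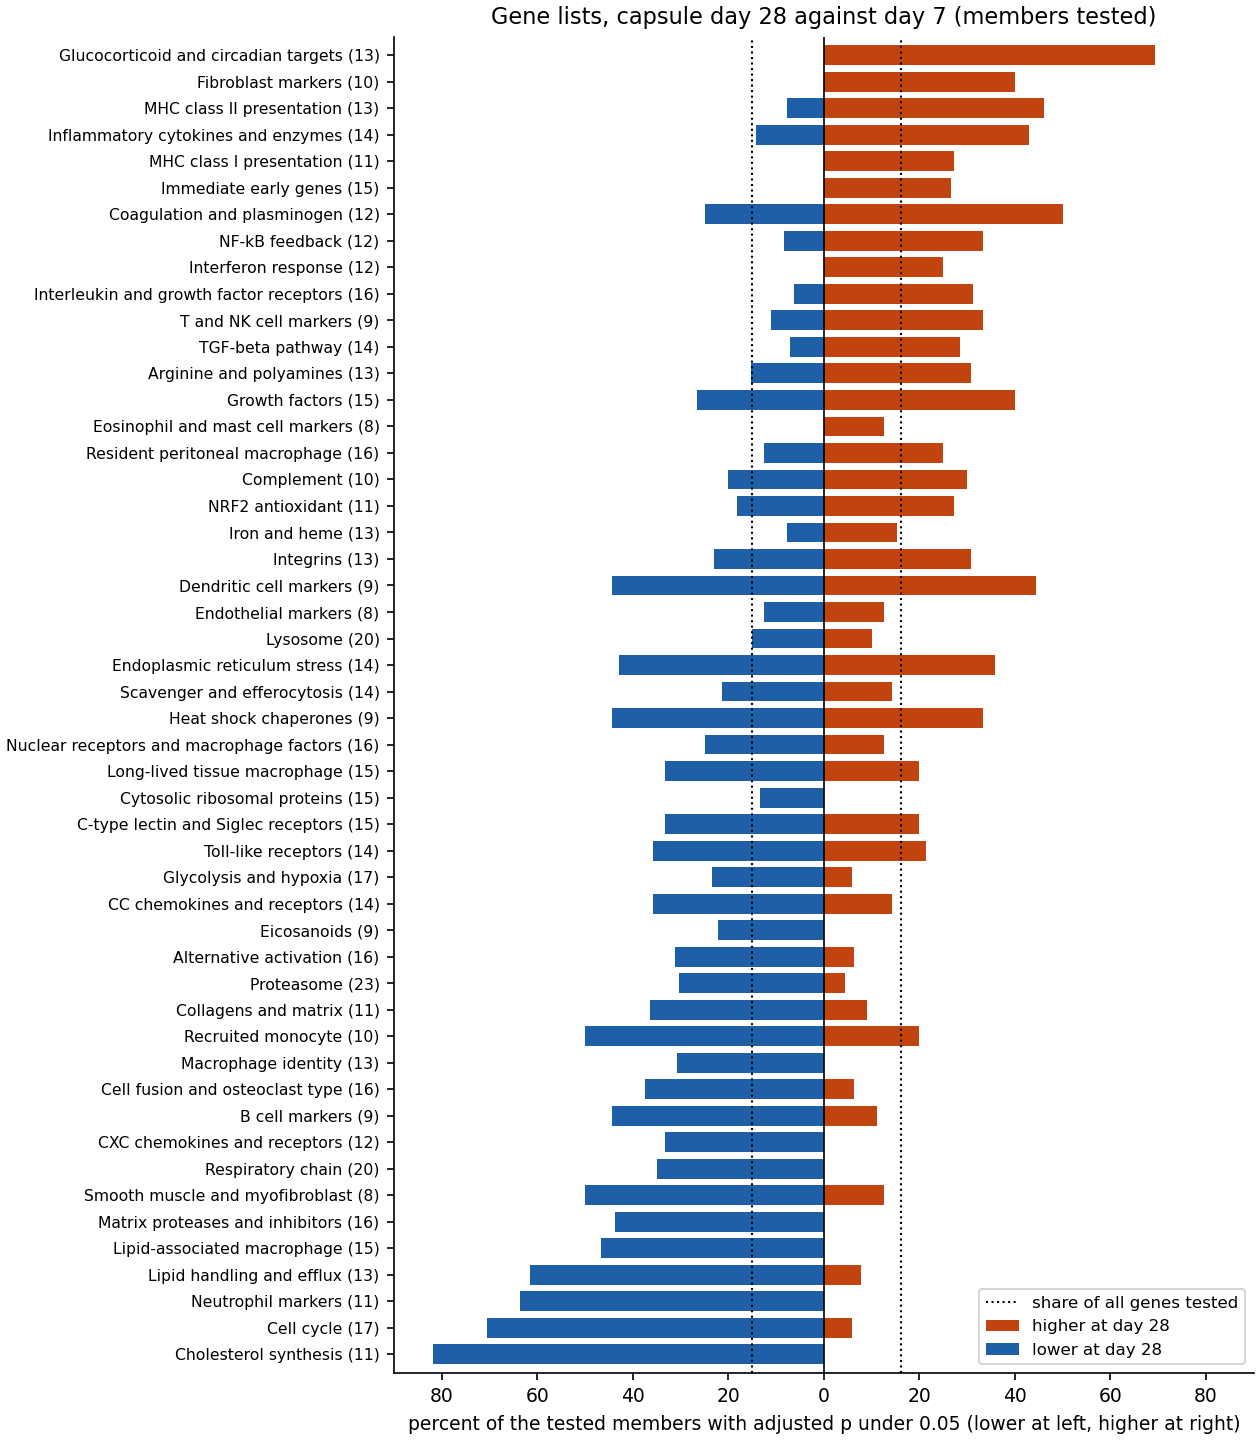
Percent of the tested members of each gene list with an adjusted p under 0.05 in capsule day 28 against day 7, higher to the right in orange and lower to the left in blue, with the number tested in parentheses. Dotted lines mark the share of all genes tested, 16.2% higher and 15% lower. Cholesterol synthesis, with 9 of 11 lower, and glucocorticoid and circadian targets, with 9 of 13 higher, reach farthest to either side.

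Of the enzymes and regulators of cholesterol synthesis, 9 of 11 tested were lower at day 28 and 0 were higher, with a median difference of -1.02, against 0.01 over all genes. Fdps, which makes farnesyl diphosphate, read 10.58 and 10.28 at day 28, against 12.24 and 11.79 at day 7 (difference -1.59, SE 0.18, adjusted p 3.94e-05). Sqle, the squalene epoxidase, read 11.49 and 11.22 at day 28, against 12.71 and 12.79 at day 7 (difference -1.39, SE 0.19, adjusted p 0.00015). The entry enzyme Hmgcs1 read 12.21 and 12.14 at day 28, against 13.35 and 13.11 at day 7 (difference -1.06, adjusted p 0.000342). Each of these lay lower on both day 28 arrays than on either day 7 array, though a second Sqle probe did not pass (-0.57, adjusted p 0.066). Cyp51, which demethylates lanosterol, fell by 1.02 and the sterol oxidase Msmo1 by 0.82, and Sc5d and Dhcr7 were also lower, as was Idi1, which was detected on neither day 28 array and was at least 1.69-fold lower. Lss, the lanosterol synthase, fell by 1.20, while a second Lss probe differed by 0.87 in the other direction (adjusted p 0.033). The regulators Srebf2 (-0.39, adjusted p 0.054) and Insig1 (-0.28, adjusted p 0.37) did not pass. None of the 9 was slide-separated. The count lower was 7 to 10 under the other settings.

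Genes for taking up and storing lipid fell as well, with 8 of 13 lower and 1 higher (median -0.85). The fatty acid carrier Fabp5 read 8.0 and 7.47 at day 28, against 10.79 and 10.86 at day 7 (difference -3.09, SE 0.22, adjusted p 1.45e-06). The scavenger receptor Cd36, which takes up oxidised lipoprotein, was detected on neither day 28 array, read 7.83 and 8.49 at day 7, and was at least 6.24-fold lower. The lysosomal lipase Lipa read 12.84 and 12.81 at day 28, against 13.99 and 13.71 at day 7 (difference -1.02, adjusted p 0.000287). In all 3 genes the days were apart, by far the most in Fabp5 and Cd36. The lipoprotein lipase Lpl fell by 1.11, the lipid droplet coat gene Plin2 by 0.85 and Apoc2, which is slide-separated, by 1.41. The exception was the sterol exporter Abcg1, which is also slide-separated and read 13.84 and 13.91 at day 28, against 12.99 and 13.02 at day 7 (difference 0.88, adjusted p 0.00266). Abca1, the other main exporter, was detected on neither day 28 array and was at least 1.57-fold lower. Of the lipid-associated macrophage list, 7 of 15 were lower and 0 higher, 5 of the 7 being lipid genes already counted, while Trem2 (-0.06), Gpnmb (-0.20) and Apoe (0.34) did not pass.

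Proliferation genes were lower at day 28 in 12 of 17 and higher in 1, with a median of -0.67. The replication clamp Pcna read 8.60 and 8.39 at day 28, against 9.77 and 9.58 at day 7 (difference -1.18, SE 0.16, adjusted p 0.000148). The topoisomerase Top2a read 8.20 and 7.96 at day 28, against 9.49 and 9.27 at day 7 (difference -1.30, SE 0.24, adjusted p 0.00118). The mitotic kinase Aurka read 8.15 and 8.24 at day 28, against 9.47 and 9.51 at day 7 (difference -1.30, SE 0.27, adjusted p 0.00278). These 3 were apart between the days by over 1 unit in their means and stayed past the threshold without any 1 array. Aurkb, Cdk1, Tyms, Rrm2, Birc5, Mcm2, Mcm4, Mcm6 and Rrm1 were also lower. Mcm6 is slide-separated, and its 2 other probes gave 0.59 (adjusted p 0.028) and 0.07 (adjusted p 0.78). Aurkb had an adjusted p of 0.134 and 0.0656, Cdk1 of 0.0893 and 0.131 and Mcm6 of 0.0534 and 0.101 without day 28 replicate 2 and day 7 replicate 1. Plk1 (-0.58), Mcm5 (-0.50), Mcm7 (-0.43) and Cdc20 (-0.30) did not pass. The exception, the spindle checkpoint kinase Bub1, rose by 0.70 at a low level, is slide-separated, and had an adjusted p of 0.0744 without day 28 replicate 2. The count of lower genes depended on single arrays. It was 9 without day 28 replicate 1, 3 without day 28 replicate 2, 3 without day 7 replicate 1 and 7 without day 7 replicate 2, and 6 with the 8 capsule arrays fitted alone. Cdkn2a, which holds back the cell cycle, rose over the same interval, and its part in these falls was not tested.

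Markers of neutrophils were lower in 7 of 11 and higher in 0, with a median of -1.40, or -0.88 with the genes detected on 1 day only set to their bounds. S100a8, the partner of S100a9, read 10.36 and 9.75 at day 28, against 11.93 and 11.62 at day 7 (difference -1.72, SE 0.24, adjusted p 0.000177). The resistin-like Retnlg read 8.20 and 6.50 at day 28, against 10.99 and 9.58 at day 7 (difference -2.93, SE 0.54, adjusted p 0.00133). The granule collagenase Mmp8 and the granule protein Ltf were detected on neither day 28 array and were at least 1.84-fold and 1.74-fold lower. The days stayed apart in each, though Retnlg varied by over 1 unit within a day. The chemokine receptor gene Cxcr2 (-0.89, adjusted p 0.074), the growth factor receptor gene Csf3r (-0.47, adjusted p 0.103), and Camp (-0.19) did not pass, and Lcn2 was detected on neither day. Over the 8 neutrophil markers tested of a panel of 10, the summed linear intensity was 3198 and 2112 at day 28, against 10596 and 7961 at day 7. Ly6g and Ngp were not tested, and Cxcr2 and Mmp8 were undetected at day 28. The part of such cells in the falls of S100a9, Mmp9, Wfdc21 and Csta2 was not tested.

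Genes of recruited monocytes were lower in 5 of 10 and higher in 2, with a median of -0.78, or -0.47 with the genes detected on 1 day only set to their bounds. The count higher was 0 without day 28 replicate 1 or day 7 replicate 1. The chemokine receptor Ccr2, which brings monocytes out of blood, read 5.91 and 6.40 at day 28, against 8.70 and 8.60 at day 7 (difference -2.50, SE 0.28, adjusted p 3.91e-05). Haptoglobin, Hp, read 8.18 and 7.81 at day 28, against 11.07 and 10.42 at day 7 (difference -2.75, SE 0.25, adjusted p 7.75e-06). Both were several-fold lower on each day 28 array. Both are slide-separated, as are 3 of the 5 lower genes in all. The matrix glycoprotein fibronectin, Fn1, fell by 0.90 and S100a4 by 0.72, and neither is slide-separated. The lectin Clec4e, which is slide-separated, rose by 0.77 (0.29 on a second probe, adjusted p 0.24) and the glutathione transferase Mgst1 by 0.95. Clec4e lost its call without day 28 replicate 1 (adjusted p 0.0683) or day 7 replicate 1 (0.0539), as did Mgst1 (0.0998 and 0.127). Plac8 (-1.39, adjusted p 0.095) and Vcan (0.28) did not pass.

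Among general macrophage genes 0 of 13 rose and 4 fell, while 9 did not pass. The count lower was 2 without day 28 replicate 2 or day 7 replicate 1. Adgre1, which encodes F4/80, read 14.29 and 14.44 at day 28, against 14.55 and 14.65 at day 7 (difference -0.23, adjusted p 0.21). Itgam (-0.15), Mertk (0.14), Lyz2 (-0.06), Cd14 (0.31) and Mrc1 (-0.10) likewise did not pass. The high-affinity IgG receptor Fcgr1 read 9.59 and 9.55 at day 28, against 11.37 and 10.77 at day 7 (difference -1.50, SE 0.23, adjusted p 0.000351). Aif1, the actin-bundling protein IBA1, fell by 1.47. Spi1, the myeloid factor PU.1, fell by 0.59, with an adjusted p of 0.133 without day 28 replicate 2 and 0.151 without day 7 replicate 1, and Maf was the fourth lower gene. Fcgr1 and Aif1 were lower on both day 28 arrays.

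Genes of long-lived and of peritoneal resident macrophages moved in both directions within each list. The complement receptor Vsig4 read 13.64 and 13.86 at day 28, against 11.51 and 11.42 at day 7 (difference 2.29, SE 0.43, adjusted p 0.00156). Gas6, a bridge between dying cells and TAM receptors, read 11.25 and 11.16 at day 28, against 9.40 and 9.63 at day 7 (difference 1.69, adjusted p 0.000515). Its receptor Axl read 11.66 and 12.06 at day 28, against 10.42 and 9.75 at day 7 (difference 1.77, adjusted p 0.000404). Receptor and ligand were thus each higher on both day 28 arrays, and of the 3 genes only Gas6 is slide-separated. The plasminogen activator inhibitor Serpinb2 rose by 1.16. The scavenger receptor Marco read 6.59 and 5.87 at day 28, against 9.52 and 8.52 at day 7, and fell by 2.79 (adjusted p 0.00241). The galactose lectin Clec10a read 11.30 and 11.38 at day 28, against 13.11 and 13.45 at day 7 (difference -1.94, adjusted p 5.29e-05), and the eotaxin Ccl24 fell by 1.53. Pf4, described above, also belongs to the long-lived list. Gata6 (0.29), Timd4 (-0.13), Lyve1 (0.53) and Folr2 (0.08) did not pass. In all, 3 of 15 long-lived macrophage genes were higher and 5 lower, and 4 of 16 peritoneal resident genes were higher and 2 lower. The long-lived list had 3 lower without day 28 replicate 1 or day 7 replicate 2, and the peritoneal list 2 higher without day 7 replicate 2.

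Some of the largest rises were genes with high levels in lavage cells of untreated mice. At lavage day 0, Tgfb2 read 14.28 and 13.94, Enpp5 11.63 and 11.72, Htra3 11.12 and 11.05, Slc10a6 9.81 and 9.88, Cdkn2a 9.73 and 9.71 and Zcchc14 9.62 and 8.99. These are the 6 of the 20 rises whose lavage day 0 mean lay nearer to capsule day 28 than to capsule day 7. None of the 6 is slide-separated. Among all genes at least 2-fold higher, 135 of 521 (25.9%) were placed in this way, and among those at least 2-fold lower 278 of 651 (42.7%). The same held for 12 of the 20 largest falls, and the share over all genes tested was not counted.

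Genes linked to macrophage fusion and to osteoclast-type cells were lower in 6 of 16 and higher in 1. Ocstamp, a membrane protein needed for fusion of osteoclasts and foreign body giant cells, read 9.42 and 8.89 at day 28, against 12.37 and 12.30 at day 7 (difference -3.19, SE 0.39, adjusted p 7.08e-05). A second Ocstamp probe gave -1.95 (adjusted p 4.5e-06). Dcstamp, its partner in fusion, read 7.20 and 7.02 at day 28, against 9.04 and 9.17 at day 7 (difference -2.0, SE 0.18, adjusted p 8.71e-06). Both fusion genes were lower on each day 28 array by well over the spread, and neither is slide-separated. The adaptor Tyrobp, which is slide-separated, fell by 1.05. Acp5, the tartrate-resistant phosphatase, fell by 1.36 and lost its call without day 28 replicate 2 (adjusted p 0.063) or day 7 replicate 2 (0.061). Ctsk, a collagen-cutting cathepsin, fell by 1.04 and lost its call without the same arrays (0.0699 and 0.0812). Cd47, the do-not-eat-me ligand, rose by 0.69, with 0.0847 without day 28 replicate 2 and 0.0718 without day 7 replicate 1. The surface genes Itgb3 (0.00), Cd44 (0.12) and Cd9 (0.38) and the factor Nfatc1 (0.33) did not pass.

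Matrix-degrading enzymes were lower in 7 of 16 and higher in 0, with a median of -0.39. The gelatinase Mmp9 read 8.0 and 6.75 at day 28, against 10.70 and 10.99 at day 7 (difference -3.47, SE 0.31, adjusted p 7.75e-06). Mmp19 read 9.24 and 9.22 at day 28, against 10.93 and 11.24 at day 7 (difference -1.85, SE 0.24, adjusted p 0.000106). The membrane-bound Mmp14 read 11.62 and 11.09 at day 28, against 12.62 and 12.90 at day 7 (difference -1.41, adjusted p 0.000431). In each of them the lowest day 7 array was above the highest day 28 array, and Mmp9 alone varied by over 1 unit within a day. The urokinase Plau fell by 1.19 and the sheddase Adam10 by 1.02 (-0.72 on a second probe, adjusted p 0.087). The macrophage elastase Mmp12 (-0.53), Mmp13 (0.46) and Mmp2 (-0.02) did not pass, nor did the inhibitors Timp1 (0.78, adjusted p 0.055), Timp2 (0.40) and Timp3 (0.29). None of the 7 is slide-separated.

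Several contractile genes fell while several fibroblast genes rose. The smooth muscle actin Acta2 read 5.65 and 5.17 at day 28, against 7.96 and 7.29 at day 7 (difference -2.21, SE 0.25, adjusted p 4.77e-05). Tpm2, a muscle tropomyosin, read 8.51 and 7.92 at day 28, against 9.52 and 9.77 at day 7 (difference -1.43, adjusted p 0.000338). The collagen crosslinker Lox read 8.95 and 8.30 at day 28, against 10.18 and 10.80 at day 7 (difference -1.87, adjusted p 0.00232). All 3 were lower on both day 28 arrays, and Acta2 was detected on only 1 of them. The proteoglycan decorin, Dcn, which is slide-separated, read 10.30 and 10.35 at day 28, against 8.50 and 7.85 at day 7 (4.44-fold, SE 0.30 on the log2 scale, adjusted p 0.000178). Dermatopontin, Dpt, read 7.53 and 7.41 at day 28, against 6.68 and 5.79 at day 7 (difference 1.23, adjusted p 0.0034). Both were higher on each day 28 array, and of 3 other Dcn probes 2 rose by 2.43 and 1.51 and 1 differed by 0.23. Of the fibroblast list 4 of 10 were higher and 0 lower, and of the smooth muscle and myofibroblast list 4 of 8 were lower and 1 higher. Among the 4 higher fibroblast genes 2 are slide-separated, and among the 4 lower smooth muscle genes 1 is. Without day 28 replicate 2, day 7 replicate 1 or day 7 replicate 2 the fibroblast list had 2 higher, and without day 28 replicate 2 the smooth muscle list had 2 lower. Serpinf1, among the 4 fibroblast genes, lost its call without any 1 array (adjusted p 0.0949 to 0.133), and its second probe fell by 0.69 (0.0069). Pdgfra, another of the 4, had 0.0819, 0.0592 and 0.0703 without day 28 replicate 2, day 7 replicate 1 and day 7 replicate 2. It was detected on neither day 7 array, and a second Pdgfra probe differed by -0.07 (adjusted p 0.78). The contractile kinase gene Mylk was the smooth muscle member that rose (0.80), while a second Mylk probe differed by -0.23 (adjusted p 0.35). Col1a1 (-0.45, adjusted p 0.41) did not pass, and Col1a2, Col3a1 and Lum were not tested.

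Marker panels of other cells were also summed in the sorted pools. The fibroblast and myofibroblast panels hold Dcn, Dpt, Pdgfra, Serpinf1, Acta2 and Tpm2 themselves, so their sums are not independent of the values above. The summed linear intensity of the 7 fibroblast markers tested was 1976 and 1998 at day 28, against 921 and 585 at day 7. That of Acta2 and Tpm2, the 2 myofibroblast markers tested, was 415 and 279 at day 28, against 982 and 1028 at day 7, and 6 others of that panel, including Tagln, Myh11 and Des, were not tested. The 6 T and NK cell markers tested summed to 598 and 538 at day 28, against 365 and 293 at day 7, and Cd3e, Cd3g, Nkg7 and Klrb1c were detected on neither day 7 array. The 6 B cell markers tested summed to 430 and 495 at day 28, against 446 and 528 at day 7, with Cd79a undetected on both days. The part of such cells in the changes of Dcn, Acta2 and the lymphoid genes was not tested.

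Coagulation and plasminogen genes were higher in 6 of 12 and lower in 3. With median scaling 4 were higher and 3 lower. The tissue plasminogen activator Plat, which is slide-separated, read 7.99 and 7.65 at day 28, against 5.86 and 5.09 at day 7 (difference 2.34, SE 0.27, adjusted p 4.77e-05). Factor V, F5, read 12.19 and 12.45 at day 28, against 10.61 and 10.96 at day 7 (difference 1.54, adjusted p 0.00278). Von Willebrand factor, Vwf, also slide-separated, read 11.47 and 11.61 at day 28, against 9.58 and 10.33 at day 7 (difference 1.58, adjusted p 0.000334). These 3 rose on both arrays, while the starter of the extrinsic pathway and its inhibitor were lower. Tissue factor, F3, read 10.04 and 9.67 at day 28, against 10.88 and 10.98 at day 7 (difference -1.08, adjusted p 0.00235). Its inhibitor Tfpi, which is slide-separated, read 6.18 and 5.99 at day 28, against 8.62 and 8.76 at day 7 (difference -2.60, adjusted p 0.000348). The other endothelial marker that changed, Pecam1, went the other way from Vwf, at 9.43 and 9.14 at day 28, against 11.08 and 11.49 at day 7 (difference -2.0, adjusted p 0.000216), and Kdr (-0.35), Emcn (-0.14) and Eng (-0.11) did not pass.

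The endoplasmic reticulum stress response has separate arms. One raises chaperones that fold proteins in the reticulum, through ATF6 and XBP1, and another runs through ATF4, which also serves amino acid shortage, and raises genes such as Asns, Trib3, Chac1 and Ddit3. The members of this list moved in both directions, 5 of 14 higher and 6 lower. The promoter windows of 3 higher and 3 lower members are shown because the arms are known to act through different sequence elements. Each window shown was picked because it holds a match, and members without one are left out. They span the annotated start, are taken from RefSeq (GRCm38.p6) and are written 5′ to 3′ on the gene's strand. Capitals mark, in the higher genes, the amino acid response core TGATGNAA, and in the lower genes the endoplasmic reticulum stress element, CCAAT and CCACG with any 9 bases between them, on either strand.
Trib3, chr2:152344011-152344310, minus strand: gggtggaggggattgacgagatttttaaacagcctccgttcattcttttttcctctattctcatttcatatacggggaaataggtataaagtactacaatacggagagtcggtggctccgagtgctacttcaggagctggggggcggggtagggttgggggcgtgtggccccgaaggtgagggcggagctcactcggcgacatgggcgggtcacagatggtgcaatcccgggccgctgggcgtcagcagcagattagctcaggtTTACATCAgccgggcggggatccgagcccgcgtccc
Asns, chr6:7693160-7693459, minus strand: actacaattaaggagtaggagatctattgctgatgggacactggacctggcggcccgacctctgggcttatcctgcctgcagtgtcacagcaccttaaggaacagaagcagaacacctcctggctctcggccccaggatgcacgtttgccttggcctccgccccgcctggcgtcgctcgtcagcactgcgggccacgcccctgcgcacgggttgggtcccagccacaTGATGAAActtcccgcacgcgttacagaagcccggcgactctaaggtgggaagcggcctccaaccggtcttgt
Chac1, chr2:119350992-119351291, plus strand: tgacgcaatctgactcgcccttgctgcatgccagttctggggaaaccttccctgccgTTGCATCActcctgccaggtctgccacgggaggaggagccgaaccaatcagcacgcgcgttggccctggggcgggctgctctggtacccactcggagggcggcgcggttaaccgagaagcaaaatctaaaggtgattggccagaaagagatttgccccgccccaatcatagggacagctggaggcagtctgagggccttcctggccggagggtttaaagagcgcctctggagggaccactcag
Hspa5, chr2:34771840-34772139, plus strand: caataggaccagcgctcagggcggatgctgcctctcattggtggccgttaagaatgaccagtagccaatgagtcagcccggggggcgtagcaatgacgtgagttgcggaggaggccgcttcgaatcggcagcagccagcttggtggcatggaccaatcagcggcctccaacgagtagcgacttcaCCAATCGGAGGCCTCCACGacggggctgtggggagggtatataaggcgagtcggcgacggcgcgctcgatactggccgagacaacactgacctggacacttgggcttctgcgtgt
Hsp90b1, chr10:86705395-86705694, minus strand: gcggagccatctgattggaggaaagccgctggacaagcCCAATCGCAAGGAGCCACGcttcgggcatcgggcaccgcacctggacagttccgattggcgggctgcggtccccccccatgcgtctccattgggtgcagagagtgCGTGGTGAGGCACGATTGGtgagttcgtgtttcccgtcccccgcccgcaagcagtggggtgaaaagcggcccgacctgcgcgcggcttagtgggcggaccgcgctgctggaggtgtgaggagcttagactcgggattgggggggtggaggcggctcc
Creld2, chr15:88819396-88819695, plus strand: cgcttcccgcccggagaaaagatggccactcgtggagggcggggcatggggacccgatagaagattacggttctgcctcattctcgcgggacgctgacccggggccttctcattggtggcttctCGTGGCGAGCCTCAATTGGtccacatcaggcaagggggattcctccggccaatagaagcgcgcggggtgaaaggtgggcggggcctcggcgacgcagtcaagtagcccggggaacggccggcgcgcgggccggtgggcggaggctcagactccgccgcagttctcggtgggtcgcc

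Counted from the annotated start, with upstream positions negative, the first motif begins at position 15 in Trib3, -23 in Asns and -193 in Chac1. The second begins at -65 in Hspa5, at -212 and -107 in Hsp90b1 and at -126 in Creld2. In such windows the first motif was present in 4 of the 5 higher genes, the fourth being Herpud1, in 0 of the 6 lower genes and in 264 of the 8784 tested genes with a window (3.01%). The second was present in 0 of the 5 higher genes, in 4 of the 6 lower genes, Canx included, and in 14 of the 8784 (0.159%). Canx was lower on the probe chosen but higher on another probe (0.64, adjusted p 0.011 in limma). The motifs share no bases in these windows. The list was written from textbook roles and holds known targets of both arms, so its shares are no test of the motifs. A match is a description of the letters in the window, and its use by a factor was not measured.

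The 4 rises with the first motif were all well past the threshold. Trib3, a pseudokinase that binds ATF4 and AKT, read 11.79 and 12.23 at day 28, against 9.27 and 9.09 at day 7 (difference 2.83, SE 0.23, adjusted p 4.24e-06), and 2 other probes gave 3.13 and 3.20. The asparagine synthetase Asns read 11.79 and 11.92 at day 28, against 9.46 and 9.89 at day 7 (difference 2.19, SE 0.38, adjusted p 0.000907). The glutathione-degrading Chac1 read 9.92 and 10.31 at day 28, against 8.08 and 7.94 at day 7 (difference 2.11, SE 0.24, adjusted p 4.42e-05). The days did not overlap in any of them, and their gap was several times the spread. Herpud1, which serves the degradation of reticulum proteins, rose by 1.67 and Ddit3, the factor CHOP, by 1.52. Trib3 and Asns are slide-separated, and Chac1, Herpud1 and Ddit3 are not.

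The chaperones of the reticulum were lower. Hspa5, which encodes BiP, read 9.93 and 9.75 at day 28, against 11.05 and 11.58 at day 7 (difference -1.48, SE 0.21, adjusted p 0.000255). Hsp90b1, or GRP94, which is slide-separated, read 14.02 and 13.98 at day 28, against 14.41 and 14.64 at day 7 (difference -0.53, adjusted p 0.015). Creld2 read 11.93 and 11.79 at day 28, against 12.55 and 12.61 at day 7 (difference -0.72, adjusted p 0.0126). The fall was 2.78-fold for Hspa5 and smaller for the others, and Hspa5 was the member that stayed past the threshold without any 1 array. Canx (-0.49), Pdia4 (-0.56) and Atf4 itself (-0.61) also fell, each with an adjusted p over 0.05 without at least 3 of the 4 arrays in turn. In addition, 1 other Canx probe passed in the other direction (0.64, adjusted p 0.011). The 2 other Atf4 probes also differed in the other direction, by 0.40 and 0.48, without passing (adjusted p 0.20 and 0.098). The count of lower members was 2 without day 28 replicate 1, 2 without day 28 replicate 2, 4 without day 7 replicate 1 and 1 without day 7 replicate 2, while the count of higher members was 5 in each case. It was 3 lower and 5 higher with the compared arrays or the 8 capsule arrays fitted alone. Adjusted p for Hsp90b1 was 0.0538, 0.0751 and 0.12 without day 28 replicate 1, day 28 replicate 2 and day 7 replicate 2, and for Creld2 it was 0.0796 and 0.0642 without the last 2. Xbp1 (0.28, adjusted p 0.092), Dnajb9 (-0.73, adjusted p 0.11) and Sdf2l1 (-0.25) did not pass.

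**Figure D4:**
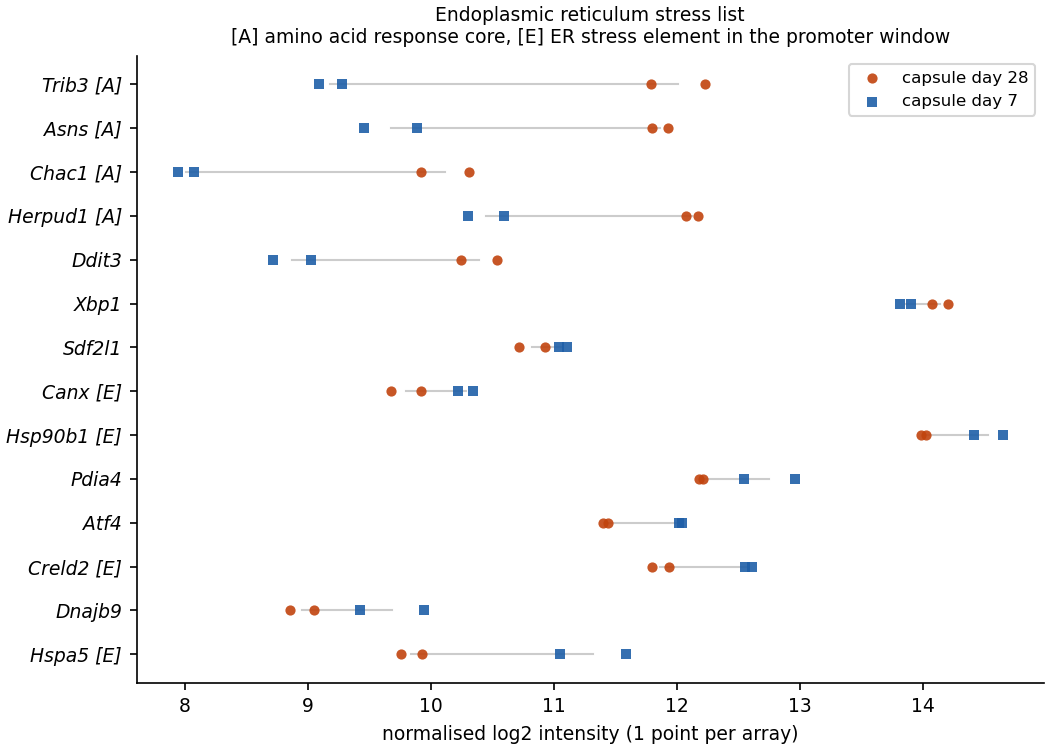
The 14 members tested of the endoplasmic reticulum stress list, with normalised log2 intensity on the horizontal axis, 1 orange circle per day 28 array and 1 blue square per day 7 array. Names carry [A] where the promoter window holds the amino acid response core (4 genes, all higher at day 28) and [E] where it holds the endoplasmic reticulum stress element (4 genes, all lower). Levels are of the probe chosen for each gene, and another Canx probe was higher.

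Glucocorticoid and circadian target genes showed the highest share of rises among the larger lists, 9 of 13, with 0 lower and a median of 0.72. The circadian repressor Nr1d1, or REV-ERB alpha, read 8.72 and 8.90 at day 28, against 6.66 and 6.45 at day 7 (difference 2.26, SE 0.25, adjusted p 3.83e-05). Of 2 other Nr1d1 probes, 1 gave 2.30 (adjusted p 5.2e-05) and the other 0.15 (adjusted p 0.69). The clock output factor Dbp, which is slide-separated, read 10.33 and 10.42 at day 28, against 8.08 and 8.72 at day 7 (difference 1.97, SE 0.24, adjusted p 6.91e-05). Its relative Tef read 11.14 and 11.30 at day 28, against 9.92 and 10.11 at day 7 (difference 1.20, adjusted p 0.000403). In all 3 both day 28 arrays were above both day 7 arrays. The clock repressor Cry2 rose by 1.05, the glucocorticoid-induced Tsc22d3, or GILZ, by 0.95 and Clock by 0.72, and Fkbp5, Sgk1 and Per3 were also higher. Clock and Sgk1 are slide-separated. Second probes of Tef (0.29, adjusted p 0.37), Tsc22d3 (0.03, adjusted p 0.96) and Clock (0.49, adjusted p 0.093) did not pass. Among the other members, Per1 (0.44), Per2 (0.36), Nr1d2 (0.60) and the Clock partner Arntl (0.18) did not pass. The glucocorticoid receptor gene Nr3c1 differed by 0.00. The hour at which cells were taken was not known here, and its part in these values was not tested. The E-box CACGTG was in the window of 3 of the 9 higher genes (33.3%), against 11.4% of tested genes with a window, and of 1 of the 3 members that did not pass and had a window (33.3%). Of the other motifs searched, the sterol element TCACNCCAC was in 1 of 7 lower cholesterol genes with a window, against 1.39% of tested genes. The cell cycle element TTTGAA was in 4 of 10 lower cell cycle genes and in 2 of 4 that did not pass, against 14.9% of tested genes.

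MHC class II presentation genes were higher in 6 of 13 and lower in 1, with a median of 0.54. The count higher was 5 with median scaling, with the compared arrays alone and with the 8 capsule arrays alone. H2-DMa did not pass in these settings (limma adjusted p 0.136, 0.0591 and 0.0615). A second probe of H2-DMb1 did not pass (0.26, adjusted p 0.31). H2-Ob and H2-Oa encode the chains of DO, which holds back peptide exchange. H2-Ob read 8.20 and 8.66 at day 28, against 6.27 and 5.86 at day 7 (difference 2.37, SE 0.26, adjusted p 3.4e-05). H2-Oa read 8.06 and 8.03 at day 28, against 6.35 and 6.67 at day 7 (difference 1.53, adjusted p 0.00288). The presenting chain H2-Eb1 read 14.66 and 14.91 at day 28, against 13.79 and 13.50 at day 7 (difference 1.14, adjusted p 0.000238). The costimulator Cd86 read 11.62 and 11.72 at day 28, against 10.66 and 10.42 at day 7 (difference 1.13, adjusted p 0.000266), and a second probe gave 0.99. All 4 were higher on each day 28 array and kept their calls without any 1 array, but a second H2-Ob probe did not pass (0.33, adjusted p 0.27). H2-Aa (-0.14), H2-Ab1 (0.33), Cd74 (0.18) and the transactivator Ciita (0.70, adjusted p 0.092) did not pass. Ctss, the protease that trims the invariant chain, fell by 1.12. None of these genes is slide-separated.

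Dendritic cell markers moved both ways, 4 of 9 higher and 4 lower, but 2 higher and 3 lower without day 28 replicate 1 or day 7 replicate 1. The lectin Cd209a read 10.11 and 10.01 at day 28, against 7.11 and 7.93 at day 7 (difference 2.54, SE 0.30, adjusted p 5.39e-05). Zbtb46, a transcription factor of classical dendritic cells, which is slide-separated, rose by 1.18. The integrin Itgax, or CD11c, read 10.31 and 9.38 at day 28, against 11.42 and 11.54 at day 7 (difference -1.63, adjusted p 0.000575). Batf3, a factor of cross-presenting dendritic cells, fell by 0.79. Ccr7 (0.12) did not pass, and Flt3, Xcr1 and Clec9a were not tested. The 4 panel markers tested summed to 3688 and 2848 at day 28, against 3753 and 4138 at day 7 on the linear scale, without one direction.

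Inflammatory cytokines and enzymes were higher in 6 of 14 and lower in 2, and all 6 that rose are slide-separated. Oncostatin M, Osm, read 13.57 and 13.40 at day 28, against 11.62 and 11.32 at day 7 (difference 2.01, SE 0.24, adjusted p 6.29e-05). Interleukin 1 alpha, Il1a, read 13.38 and 13.22 at day 28, against 12.22 and 11.62 at day 7 (difference 1.38, adjusted p 0.00359). The inflammasome sensor Nlrp3 read 9.44 and 9.04 at day 28, against 8.09 and 8.30 at day 7 (difference 1.05, adjusted p 0.00154). These 3 kept their calls without any 1 array, whereas Il1b, Il10 and Il23a did not. Il1b rose by 0.76, with adjusted p 0.176, 0.0679 and 0.272 without day 28 replicate 1, day 28 replicate 2 and day 7 replicate 2. Il10 rose by 1.11, with 0.0978, 0.0752 and 0.271 without the same arrays, and Il23a by 1.02, with 0.0752 to 0.103 without any 1 array. Tumour necrosis factor, Tnf, read 11.34 and 11.40 at day 28, against 12.62 and 12.22 at day 7 (difference -1.04, adjusted p 0.0114), with 0.0551 without day 28 replicate 1 and 0.0915 without day 7 replicate 1. Nos2 fell by 1.26, with 0.181 without day 28 replicate 2 and 0.223 without day 7 replicate 1. Il6 (0.12), Tgfb1 (-0.25) and Ptgs2 (-0.54) did not pass, nor did a second Nlrp3 probe (0.52, adjusted p 0.098). The list had 3 higher and 1 lower without day 28 replicate 1 or replicate 2, 5 and 0 without day 7 replicate 1, and 3 and 3 without day 7 replicate 2. Its median was 0.12, and -0.12 with median scaling.

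Of 14 CC chemokine and receptor genes 5 were lower and 2 higher, and of 12 CXC members 4 were lower and 0 higher. The CC list had 4 lower and 0 higher without day 28 replicate 1, 3 and 1 without day 28 replicate 2 or day 7 replicate 1, and 5 and 1 without day 7 replicate 2. The CXC list had 7 lower without day 7 replicate 2. Ccl6 read 13.76 and 13.55 at day 28, against 14.79 and 14.74 at day 7 (difference -1.11, SE 0.13, adjusted p 6.87e-05). Cxcl14 read 10.08 and 9.88 at day 28, against 12.05 and 11.70 at day 7 (difference -1.90, SE 0.24, adjusted p 0.000118). The platelet-type chemokine Ppbp fell by 2.16 and was detected on only 1 day 28 array. Both Ccl6 and Cxcl14 lay apart between the days. Ccl3 fell by 1.68, with adjusted p 0.0588 without day 28 replicate 2 and 0.0816 without day 7 replicate 1. Ccl5 rose by 1.73, with 0.0504 without day 28 replicate 1 and 0.0925 without day 7 replicate 2. The monocyte attractant Ccl2 (-0.08, adjusted p 0.93) and the fractalkine receptor Cx3cr1 (0.18) did not pass.

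Growth factor genes were higher in 6 of 15 and lower in 4, and 5 of the 6 that rose are slide-separated, all but Tgfb2. Fibroblast growth factor 2, Fgf2, read 7.05 and 7.23 at day 28, against 5.94 and 5.96 at day 7 (difference 1.19, SE 0.22, adjusted p 0.00122). Tgfb3 read 7.36 and 6.81 at day 28, against 8.50 and 8.46 at day 7 (difference -1.39, SE 0.20, adjusted p 0.000264). The 2 TGF-beta isoforms thus changed in opposite directions, with Tgfb2 higher and Tgfb3 lower on both day 28 arrays, and Tgfb1 differed by -0.25 without passing. Pmepa1, a TGF-beta target that dampens the pathway and is slide-separated, read 9.54 and 9.63 at day 28, against 7.84 and 7.55 at day 7 (difference 1.89, SE 0.23, adjusted p 6.6e-05). The receptor Tgfbr1 rose by 0.96 and the shared mediator Smad4 by 0.69, and neither is slide-separated. Smad2 (-0.05), Smad3 (-0.11) and Tgfbi (0.04) did not pass. Pdgfa rose by 0.67, with adjusted p 0.0699 without day 28 replicate 2 and 0.0711 without day 7 replicate 1. Vegfa (-0.05) and Pdgfc (0.83, adjusted p 0.059) did not pass. The growth factor list had 3 higher and 1 lower without day 28 replicate 1, 2 and 2 without day 28 replicate 2, and 3 and 1 without day 7 replicate 1.

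Respiratory chain genes fell in 7 of 20 and rose in 0, and 5 of the 7 are slide-separated. The complex IV-associated Ndufa4 read 12.56 and 12.43 at day 28, against 13.98 and 13.70 at day 7 (difference -1.34, SE 0.14, adjusted p 2.22e-05). Cox5a read 13.48 and 13.39 at day 28, against 14.15 and 13.96 at day 7 (difference -0.62, adjusted p 0.00551), is not slide-separated, and had an adjusted p of 0.0522 without day 7 replicate 1. The falls were small beside the 11.9-fold rise of Cox6a2, which is no member of this list. Atp5a1 fell by 1.49, while its second probe differed by 0.00. Ndufv1 (0.00), Uqcrc2 (-0.01) and Atp5c1 (0.04) did not pass. Of the glycolysis and hypoxia list 4 of 17 were lower and 1 higher, and without day 28 replicate 1, day 28 replicate 2 and day 7 replicate 1 there were 2, 1 and 1 lower. Its clearest member was Pdk1 (a second probe at -0.55 did not pass), which diverts pyruvate from the mitochondrion and read 11.21 and 11.18 at day 28, against 12.32 and 12.24 at day 7 (difference -1.08, adjusted p 0.00224). Ldha (0.28), Slc2a1 (0.23) and Gapdh (0.19) did not pass.

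The groups between the ends place these changes in time. Of the 20 largest rises, 19 had a day 14 mean nearer to day 28 than to day 7, and 20 had such a day 21 mean. Of the 20 largest falls the counts were 13 and 19. Over all genes at least 2-fold higher, 338 of 521 (64.9%) had passed the midpoint by day 14 and 488 (93.7%) by day 21, and over those at least 2-fold lower 469 of 651 (72%) and 608 (93.4%). Day 14 was on slide 3 and day 21 on slide 4, so these counts carry the slide as well. Fabp5 read 8.04 and 7.95 at day 14, close to its level at day 28, whereas Mmp9 still read 10.20 and 10.41 at day 14 and then 7.29 and 7.48 at day 21. Eno2 also stayed high at day 14, at 10.13 and 10.87, and read 6.58 and 6.73 at day 21. Clec4g was at 12.07 and 12.19 at day 14, and so went through a maximum before day 28.

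**Figure D5:**
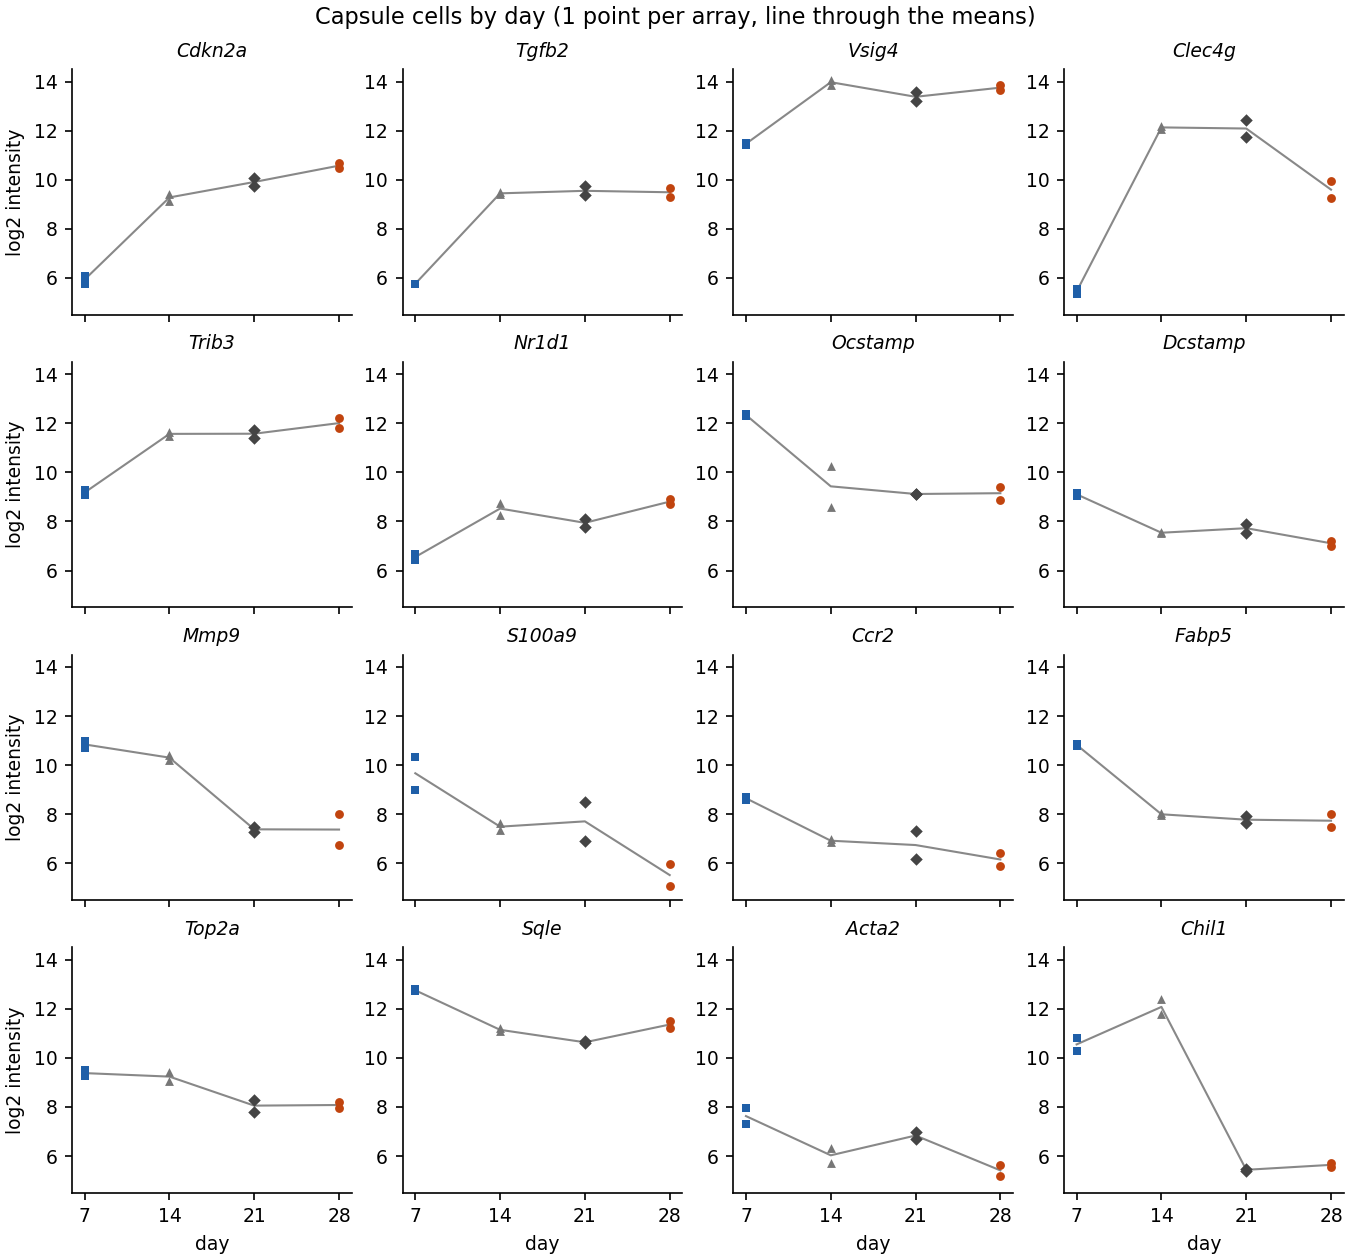
Normalised log2 intensity of 16 genes in capsule cells at day 7, 14, 21 and 28, 1 point per array with a line through the means. Fabp5 and Tgfb2 reach their day 28 level by day 14, Mmp9 and Chil1 drop between day 14 and day 21, and Clec4g is highest at day 14 and 21.

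Within slide 4, where day 28 can be set against day 21 on the same slide, 101 genes (0.935%) differed in limma, 27 higher (0.25%) and 74 lower (0.685%), and 1364 had an unadjusted p under 0.05. This is the last week of the interval and not the whole of it. All probes tested separately gave 177 probes, and the count of genes was 1 to 161 under the other settings. It was 55 without day 28 replicate 1, 54 without day 28 replicate 2 and 16 without day 21 replicate 2. Plat read 7.99 and 7.65 at day 28, against 9.49 and 9.70 at day 21 (difference -1.78, adjusted p 0.0065). Clec4g read 9.25 and 9.94 at day 28, against 12.43 and 11.74 at day 21 (difference -2.49, adjusted p 0.00187). Acta2 read 5.65 and 5.17 at day 28, against 6.71 and 6.96 at day 21 (difference -1.42, adjusted p 0.015). Each of these was below both day 21 arrays. Acta2 had read 5.72 and 6.33 at day 14, and so had no single direction between day 7 and day 28. Nlrp3 (-1.05), Tnf (-1.44), the TNF-induced Tnfaip2 (-1.31) and Traf1 (-0.77), the immediate early gene Ier2 (-1.48), Itgav (-1.09), Olfml3 (-1.02) and Pecam1 (-1.30) were also lower at day 28 than at day 21. Cldn11 was the named gene that was higher, at 8.92 and 8.58 at day 28, against 8.02 and 7.54 at day 21 (difference 0.97, adjusted p 0.0326). Cdkn2a read 10.08 and 9.74 at day 21 (difference 0.67, adjusted p 0.54), and did not pass within this slide.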

How the data were processed

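Total RNA of sorted EGFP-bright cells was measured on 18 Illumina mouse bead arrays of 46632 probes, 9 groups of 2. The deposited non-normalised table gives each probe on each array an intensity with its detection p-value, per the file headers. A table of log2 values normalised by the authors was used as an alternative. The submitters' processing notes name BeadStudio and R 2.15.3, and the authors' background correction is not stated in the sources used here.

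The neqc function of limma 3.58.1 (R 4.3.3) corrected the background, added an offset of 16 and quantile-normalised the arrays. A probe entered (20985 did) when some group had it detected at p 0.05 on both its arrays. The platform annotation gave a single symbol to 29976 probes, several to 10 and none to 16646, and the last 2 kinds named no gene. Each gene was read by its probe of highest mean (10806 genes). limma fitted 1 mean per group over all 18 arrays (9 residual and 4.58 prior degrees of freedom), with 2-sided tests, Benjamini-Hochberg adjustment over all genes and a threshold of 0.05. The limma fit alone was tried on simulated data with independent noise and no slide difference, so this does not bear on the slide. The number of arrays limits the precision.

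Named genes are, in each direction, the 20 with the largest change that passed the threshold with non-overlapping arrays, detected on both arrays of the higher day and having a symbol of their own, and members of the gene lists, with values for up to 6 changed members per direction and list. The comparison, members and lists were chosen with earlier results of these data known. Promoter windows are from RefSeq (GRCm38.p6), and 8784 of the 10806 genes had one. Alternatives changed the background correction, normalisation, detection filter, probe choice, arrays fitted, prior, slide or replicate block, left out each array, or left out the slide-separated genes. The last was chosen after seeing the data.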

Additional observations from a re-analysis of the deposited data

How the results depend on the processing

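Day and slide cannot be told apart between day 28 and day 7, and each day has 2 arrays. The count of genes changed between these days was 2630 to 3610 under the other processing settings. It was 1172 (521 higher, 651 lower) when at least a 2-fold change was also required. All probes tested separately gave 4467 of 15804 probes. Leaving out 1 array gave 2070 to 2333 genes, 1097 to 1216 higher and 973 to 1144 lower. With the replicate number as a block, 3340 genes were called. The number marks no shared animal in the labels, and replicate deviations of the days correlated at 0.0734. With the slide as a random block 3491 were called, at a within-slide correlation of -0.0631. The days share no slide, so this block cannot take a slide difference out of the comparison.

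The count between day 28 and day 21, 101 genes with 27 higher and 74 lower, was less stable. It was 161 (49 higher, 112 lower) without background correction and 48 (10 and 38) with the authors' log2 values. Fitting the 8 capsule arrays gave 15 (2 and 13), and the compared arrays alone 1 (1 and 0). All probes tested separately gave 177 probes (72 higher). The higher genes numbered 46 with an offset of 50, 17 with median scaling and 15 at 2-fold. Leaving out 1 array gave 16 to 89 genes, 3 to 21 higher and 13 to 69 lower. The fits on fewer arrays have fewer residual degrees of freedom, and the other causes were not tested.

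The settings were run for the 20 largest rises and falls and for up to 6 changed members per direction and list, not for other genes such as Cdkn2b, Idi1 and Abca1. Among the genes run, every reversal was on another probe of the same gene. Of 134 such probes, 63 kept the call, 50 kept the direction without passing and 21 reversed, as listed next. Other probes gave 0.40 and 0.48 for Atf4, 0.0033 for Atp5a1, 0.64 for Canx, 0.54 for Hk1, 0.11 for Hspd1, -1.42 for Itga9, -0.14 for Itgav, 0.87 for Lss, 0.59 and 0.065 for Mcm6, -0.23 for Mylk, -0.028 and -1.17 for Npc1, -0.074 for Pdgfra, -0.80 for Runx1, -0.69 for Serpinf1, -0.30 for Ski, -0.0052 and -0.42 for Slc11a2 and 0.47 for Tbxas1. Of these, the probes of Canx, Itga9, Lss, Runx1 and Serpinf1, and those at 0.59 for Mcm6 and -1.17 for Npc1, passed in the other direction. The cause was not tested.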

Other observations

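Pattern recognition receptors differed by member. The lipopeptide receptor Tlr2 read 13.08 and 13.14 at day 28, against 11.91 and 11.80 at day 7 (difference 1.25, SE 0.18, limma adjusted p 0.000215). Its partner Tlr1 read 6.26 and 5.62 at day 28, against 8.89 on both arrays at day 7 (difference -2.95, SE 0.28, adjusted p 1.27e-05). Tlr2 was thus higher and Tlr1 lower on both day 28 arrays, and neither is slide-separated. The RNA sensor Tlr7 fell by 1.02 and the flagellin receptor Tlr5 by 2.06, Tlr5 being detected on only 1 day 28 array. Of the 14 genes of this list 3 were higher and 5 lower, against 16.2% and 15% of all genes. The list had 1 higher and 5 lower without day 28 replicate 1, 2 and 3 without day 28 replicate 2, 1 and 3 without day 7 replicate 2, and 1 and 6 with median scaling.

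Receptors for interleukins and growth factors were higher in 5 of 16 and lower in 1, but higher in 2 and lower in 4 with median scaling. There were 4 higher and 2 lower without day 28 replicate 1, 3 and 1 without day 28 replicate 2, and 2 and 2 without day 7 replicate 2. Il17ra read 10.08 and 10.12 at day 28, against 8.69 and 8.71 at day 7 (difference 1.40, SE 0.15, adjusted p 2.96e-05), and a second probe gave 1.13. Il13ra1 rose by 0.99 while Il4ra, with which it forms a receptor for interleukins 4 and 13, fell by 0.92. Il7r, the interleukin 7 receptor chain, read 11.35 and 10.92 at day 28, against 12.96 and 12.83 at day 7 (difference -1.76, adjusted p 4.89e-05). Other Il7r probes gave -0.96, -0.58 and -0.39, the last without passing (adjusted p 0.37). Proteasome subunits were lower in 7 of 23 and higher in 1, the unstable Psmc1. The count lower was 4 without day 28 replicate 1, day 28 replicate 2 or day 7 replicate 1, and with the 8 capsule arrays alone. Psmd14, a deubiquitinase of the proteasome lid, fell by 1.26 and Psmd12 by 1.11. Of 15 cytosolic ribosomal protein genes, 2 were lower and 0 higher, with 1 lower without any 1 array and 5 lower with median scaling.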
